A study of Mus musculus with 2 samples.

Results

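Interferon regulatory factors (IRFs) were examined in regulatory T (Treg) cells, which hold other immune cells in check, of mice lacking the microRNA miR-125a and of their wild-type (WT) littermates. The members were the genes Irf1 to Irf5 and Irf7 to Irf9, taken as every probe set whose platform annotation names one of them. That gave 14 probe sets of 8 genes, out of 34945 probe sets that name 1 gene and 18193 genes in all. The miR-125a-deficient group, labelled miR-125a KO, and the WT group each consisted of splenic CD4+CD25hi cells, taken at an age of 6 to 8 weeks. CD4 T cells were enriched magnetically, and the CD4+CD25hi cells were then sorted by flow cytometry. RNA of different mice of a genotype was pooled in equal amounts, and each pool was read on 1 Affymetrix mouse genome array from 6 ug of total RNA. The number of mice in a pool and the way the miR-125a allele was made are not given in the sources used here. With 1 pooled array per genotype there is no replicate, so every difference below compares 2 RNA pools and carries no p-value.

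IRFs are transcription factors that share a DNA-binding domain reading GAAA-type motifs. IRF3, IRF5 and IRF7 are activated by sensors of foreign nucleic acid and switch on type I interferon genes, and IRF9 joins STAT2 in the complex ISGF3, which switches on interferon-stimulated genes. IRF1 is induced by interferon gamma and activates transcription, and IRF2 occupies the same sites and largely represses. IRF4 and IRF8 are the lymphoid and myeloid members, which bind DNA weakly alone and act with partners such as BATF and JUN proteins or, in B and myeloid cells, PU.1. In mouse Treg cells IRF4 is known for effector differentiation and for the control of type 2 helper responses.

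IRF4 has been described as a target of miR-125b, which shares its seed with the microRNA deleted here. The mature sequences are from RefSeq (GRCm38.p6) and compare the deleted microRNA with that relative. The seed, bases 2 to 8, is in capitals and is identical in both.
miR-125a-5p (chr17:17830817-17830840, plus strand): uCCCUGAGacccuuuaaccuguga
miR-125b-5p (from Mir125b-1, chr9:41581940-41581961, plus strand): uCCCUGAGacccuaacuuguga
Target sites in IRF transcripts were not analysed here.

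Several IRF genes are themselves regulated by interferon, so their promoters were searched for the letters of the sites used by that pathway. The windows were the 250 bases before each annotated gene start in RefSeq (GRCm38.p6), 11 windows for the 8 genes. The gamma-activated site was searched as TTCNNNGAA and the interferon-stimulated response element as GAAA, any 2 bases and GAAA, on both strands. The first was found in 7.02% and the second in 2.98% of all 32851 windows of the same length. Counted by gene, the first was found in 8.13% and the second in 3.46% of 27025 genes. Among the IRFs, TTCNNNGAA matched in Irf1, Irf2 and Irf8, once each in Irf1 and Irf2 and at 2 places in Irf8. The response element matched once, in Irf2, and did not overlap the other match. No match was found in the other windows, those of Irf3, Irf4, Irf5, Irf7 and Irf9 and the alternative starts of Irf1 and Irf8. A match describes the letters only, and no binding was measured. The windows with matches follow, with the matched letters in capitals.
Irf1 (chr11:53769764-53770013, plus strand): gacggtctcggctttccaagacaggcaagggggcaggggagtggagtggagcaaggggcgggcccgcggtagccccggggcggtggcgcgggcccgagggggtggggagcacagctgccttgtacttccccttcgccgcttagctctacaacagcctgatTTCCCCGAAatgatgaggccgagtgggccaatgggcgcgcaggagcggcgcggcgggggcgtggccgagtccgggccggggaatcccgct
Irf2 (chr8:46739495-46739744, plus strand): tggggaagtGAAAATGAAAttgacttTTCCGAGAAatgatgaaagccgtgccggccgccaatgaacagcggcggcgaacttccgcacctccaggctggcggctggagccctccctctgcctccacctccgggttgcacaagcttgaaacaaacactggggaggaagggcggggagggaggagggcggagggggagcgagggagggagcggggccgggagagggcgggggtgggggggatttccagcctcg
Irf8 (chr8:120736108-120736357, plus strand): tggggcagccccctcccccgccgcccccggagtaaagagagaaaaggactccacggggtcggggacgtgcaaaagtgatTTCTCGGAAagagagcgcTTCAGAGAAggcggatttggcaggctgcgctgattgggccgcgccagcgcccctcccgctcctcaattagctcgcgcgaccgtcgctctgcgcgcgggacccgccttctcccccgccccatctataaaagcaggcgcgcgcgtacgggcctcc

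The arrays were close in scale. The median signal was 62.4 on the miR-125a KO array and 64.1 on the WT array, where a signal is the deposited log2 value turned back to a linear scale. A log2 ratio is log2 of the miR-125a KO signal plus 16.3 over the WT signal plus 16.3, the 25th percentile of all signals. Probe sets were kept where the signals of both pools averaged 62.3 or more, the median over all probe sets. Each ratio is given with a probe-set SD, the spread of log2 ratios within the brightest pair of probe sets of a gene. Genes were grouped by the mean signal of the pair, and the signals within a pair can differ. It was computed from 5037 genes and fell from 0.38 in the dimmest to 0.16 in the brightest of 10 groups of genes. It leaves out variation between mice. Treg and CD4 T cell markers were present in both pools, with summed signals over 10 genes of 80874 in miR-125a KO and 80596 in WT. Of these markers, Foxp3, the factor that defines Treg cells, was at 694 in miR-125a KO and 1631 in WT (log2 ratio -1.21, probe-set SD 0.20). That was the lowest ratio of the 10, of which 4 lay above 0 and 6 below. Other Treg markers were not lower, with Ikzf2 at 0.45, Il2ra at 0.27 and Ctla4 at 0.02.

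IRF transcripts differed little between the pools. All 14 probe sets were past the minimum, and their log2 ratios ran from -0.48 for Irf2 to 0.21 for the brighter probe set of Irf4. At 2-fold, 0 of 14 were higher and 0 lower, against 1.04% higher and 1.39% lower of the 19248 probe sets past the minimum. At 1.5-fold the IRF counts were again 0 and 0, against 4.73% higher and 7.15% lower overall. In all, 10 of 14 probe sets (71.4%) lay below 0, beside 52.5% of all probe sets, and after quantile or loess scaling 7 of 14 did. The median over the 14 was -0.07, beside -0.02 over all probe sets. Taking each gene by its brightest probe set, 6 of 8 IRF genes (75%) lay below 0, beside 49.0% of all genes, with a median of -0.16. That gene median stayed below 0 in every setting tried, between -0.20 and -0.09. In 6 of the 14, or 42.9%, the ratio lay at least 1 probe-set SD from 0, beside 42.2% of all probe sets. In 2, or 14.3%, it lay at least 2 such SDs away, beside 13.6% of all. These shares are close to those of the arrays at large.

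**Figure D1:**
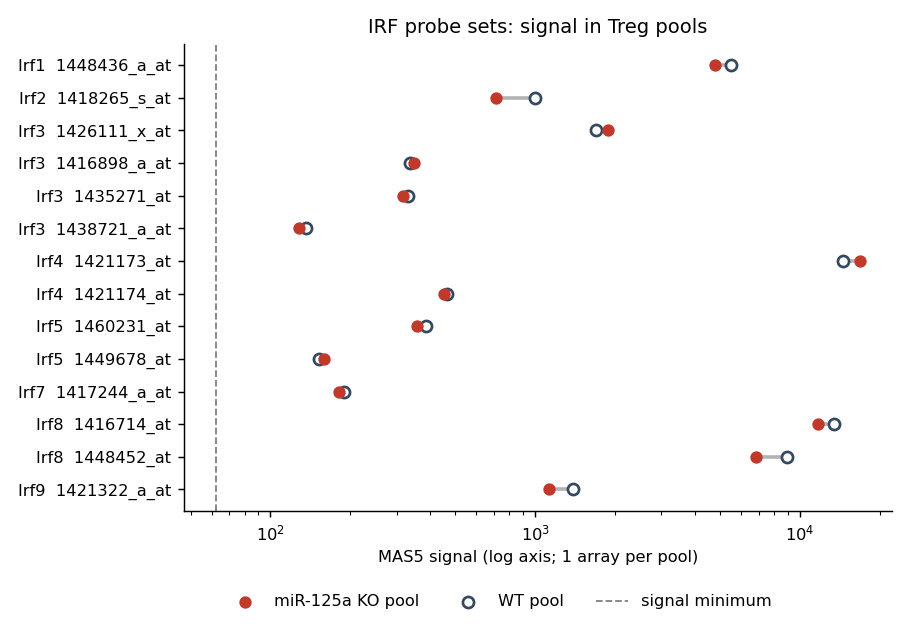
MAS5 signal (log axis) of each IRF probe set in the miR-125a KO pool (filled points) and the WT pool (open points), 1 array each, with the signal minimum of 62.3 dashed. All 14 probe sets lie above the minimum and the points of each pair lie close together, farthest apart for Irf2.

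Irf4, the lymphoid member induced by the antigen receptor, had its brighter probe set, 1421173_at, at 16889 in miR-125a KO and 14572 in WT. The log2 ratio was 0.21 (probe-set SD 0.16), a 1.16-fold higher signal. The dimmer probe set, 1421174_at, read 451 in miR-125a KO and 466 in WT (log2 ratio -0.05, probe-set SD 0.28). Both probe sets are annotated with the same sequence record, and their ratios had opposite signs. The mean over them was 0.08. Of all probe sets, 51.7% lay at least as far from 0 as the brighter and 88.5% as the dimmer one. After quantile or loess scaling the dimmer ratio was above 0, with a range over pseudocounts and scalings from -0.05 to 0.0094, and the brighter ran from 0.16 to 0.25.

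Irf8, which directs dendritic cell and monocyte development and is also made by activated lymphocytes, was lower on both of its probe sets. Both are annotated with the same sequence record. Probe set 1416714_at read 11731 in miR-125a KO and 13444 in WT, a log2 ratio of -0.20 (probe-set SD 0.16). Probe set 1448452_at read 6803 in miR-125a KO and 8958 in WT, a log2 ratio of -0.40 (probe-set SD 0.16). Divided by the probe-set SD, the ratios were -1.20 for 1416714_at and -2.42 for 1448452_at, and 54.7% and 25.6% of all probe sets lay at least as far from 0. Both ratios stayed below 0 under every pseudocount and scaling tried, between -0.45 and -0.36 for 1448452_at and between -0.25 and -0.16 for 1416714_at. In pooled RNA, fewer cells that express a gene and less RNA per cell cannot be told apart.

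Markers of other cells that can make IRFs were low for some cell types and clearly measurable for others. The summed signal of 8 B cell markers was 459 in miR-125a KO and 447 in WT, with 2 of 8 past the minimum. The defining B cell genes Cd79a and Ms4a1 were below it, Cd79a at 25.8 in miR-125a KO and 3.68 in WT and Ms4a1 at 10.1 and 33.7. The summed signal of 10 macrophage and monocyte markers was 452 in miR-125a KO and 647 in WT, with 3 of 10 past it. Csf1r, the receptor that sustains macrophages, was at 126 in miR-125a KO and 159 in WT, and Spi1, which encodes PU.1, was at 11.1 in miR-125a KO and 56.7 in WT, below the minimum. Also past it, Cd68 had a log2 ratio of -0.81 and Ccr2 of 0.35, with another Ccr2 probe set at -0.32. Lyz2, below it, was higher in miR-125a KO, at 61.0 against 30.8 in WT. Plasmacytoid dendritic cell markers summed to 2453 in miR-125a KO and 2123 in WT over 8 genes, 3 of them past the minimum, with Siglech at 19.2 and 16.7. Bst2, also listed among the ISGF3 targets, at 1305 and 1036, and Tcf4, at 761 and 603, made up most of that sum. Pacsin1, the remaining marker past the minimum, was lower, at 249 in miR-125a KO and 330 in WT. Its log2 ratio was -0.39 (probe-set SD 0.32), with its other probe set at -0.18. Conventional dendritic cell markers summed to 5829 in miR-125a KO and 2195 in WT over 7 genes, 3 of them past the minimum. Most of that sum was Batf3, which is also listed among the IRF partners, and the other 6 genes summed to 292 in miR-125a KO and 275 in WT. Of those, Zbtb46, a factor that marks these cells, was at 117 in miR-125a KO and 56.9 in WT (log2 ratio 0.86, probe-set SD 0.38). Itgax, the other of them past the minimum, went the other way, at 47.6 in miR-125a KO and 79.7 in WT (log2 ratio -0.59, probe-set SD 0.38). CD8 T and NK cell markers summed to 2936 in miR-125a KO and 4114 in WT over 5 genes. Most of that sum was Klrk1, at 1789 in miR-125a KO and 2591 in WT. Past the minimum were 4 of the 5, all 4 below 0, beside 49.0% of all genes past it. Ncr1, the remaining marker and below the minimum, had a log2 ratio above 0, at 0.18 (probe-set SD 0.38). Plasma cell markers, cells in which Irf4 is high, summed to 14783 in miR-125a KO and 17249 in WT over 6 genes. Most of that sum was Xbp1, at 14243 and 15900, while Sdc1 was below the minimum at 37.9 and 58.1. Igha, an immunoglobulin heavy chain, was at 376 in miR-125a KO and 1160 in WT (log2 ratio -1.58, probe-set SD 0.24), the 1 plasma cell marker at 2-fold or more, and its other probe sets were lower too, at -1.11 and -1.63. Mzb1, also past the minimum, was at 93.6 in miR-125a KO and 95.4 in WT (log2 ratio -0.02). Jchain, below it, was higher in miR-125a KO, at 29.8 against 17.8 in WT. At its brightest probe set, no marker of these lists was at the deposited floor on either array. The part of such cells in the Irf8 and other IRF ratios was not tested.

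Irf1, the activator induced by interferon gamma, was at 4784 in miR-125a KO and 5475 in WT on its 1 probe set. The log2 ratio was -0.19 (probe-set SD 0.16), and 55.2% of all probe sets lay at least as far from 0. Irf2, its antagonist at the same DNA sites, was at 713 in miR-125a KO and 1002 in WT. Its log2 ratio of -0.48 (probe-set SD 0.23) was the lowest of the family, a signal 1.40-fold higher in WT. Of all probe sets, 18.2% lay at least as far from 0, and the Irf2 ratio ran only from -0.49 to -0.44 over pseudocounts and scalings. It rests on 1 probe set, 1418265_s_at, whose suffix marks probes that can match transcripts of more than one gene. Irf2 and the IRF1 activator therefore both read below WT, with Irf2 by more, but the gap between them, measured on different probe sets, has no replicate behind it.

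Irf9, the DNA-binding subunit of ISGF3, was at 1124 in miR-125a KO and 1389 in WT (log2 ratio -0.30, probe-set SD 0.20). Over pseudocounts and scalings it stayed between -0.30 and -0.26. At least as far from 0 lay 36.9% of all probe sets. Stat2, its partner in that complex, read 582 in miR-125a KO and 506 in WT, a log2 ratio of 0.20 (probe-set SD 0.27), with its other probe set at 0.11.

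The IRFs that act downstream of nucleic acid sensors had ratios between -0.12 and 0.15. Irf3, which is present before infection and is activated by phosphorylation, was measured by 4 probe sets. The brightest, 1426111_x_at, read 1888 in miR-125a KO and 1703 in WT, a log2 ratio of 0.15 (probe-set SD 0.21). Its mean signal of 1795 stood far above those of the other Irf3 probe sets, 343, 324 and 132. Probe sets with its suffix were left out in alternatives described below. The other 3 had ratios of 0.05, -0.06 and -0.08, and that of -0.06, for 1435271_at, reached 0.0063 under another scaling. The 4 straddled 0 with an SD among themselves of 0.11. Irf7, the amplifier of type I interferon production and itself an interferon-induced gene, was dim, at 182 in miR-125a KO and 190 in WT (log2 ratio -0.05, probe-set SD 0.38). It was above 0 after quantile or loess scaling and ran from -0.06 to 0.03. Irf5, which acts downstream of Toll-like receptors in myeloid and B cells, had one probe set at 357 in miR-125a KO and 389 in WT and the other at 160 and 152. Those log2 ratios were -0.12 (probe-set SD 0.28) and 0.06 (probe-set SD 0.38), again on both sides of 0.

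**Figure D2:**
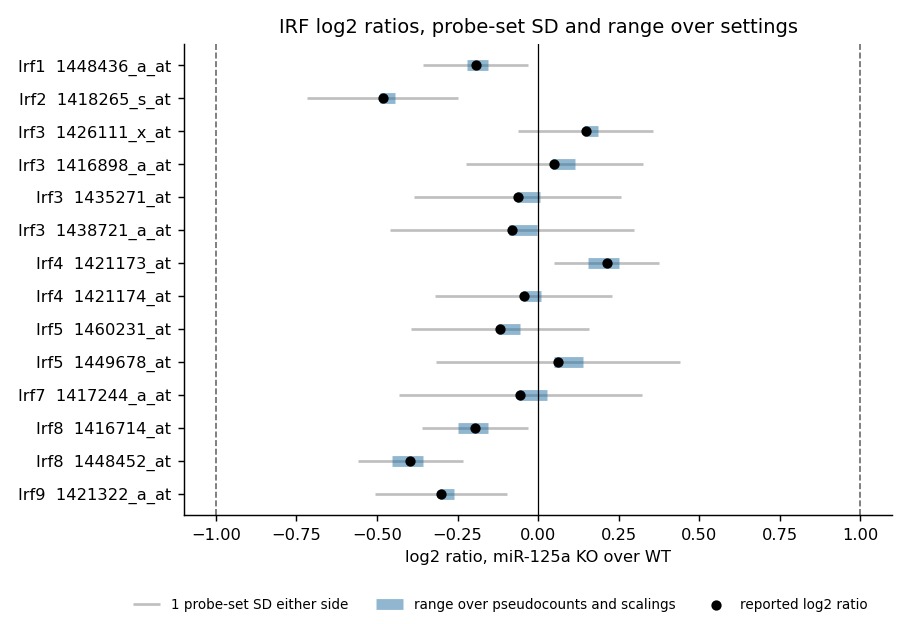
Log2 ratio of miR-125a KO over WT for each IRF probe set (black points), with 1 probe-set SD either side (grey lines) and the range over 3 other pseudocounts and 3 other scalings (blue bars). No range reaches the dashed 2-fold lines, and the ratios of Irf2, Irf8, Irf9 and Irf1 stay below 0 in every setting drawn.

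**Figure D3:**
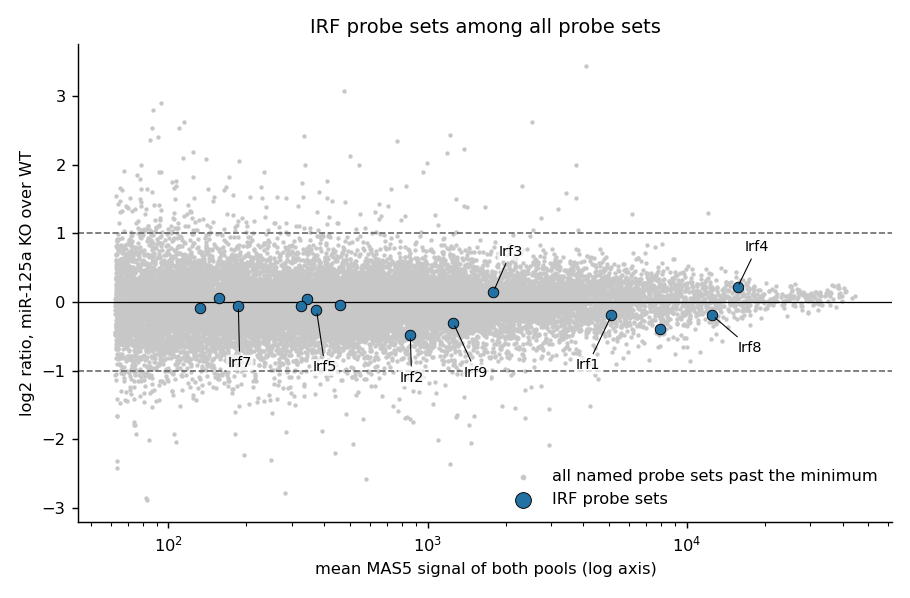
Log2 ratio of miR-125a KO over WT against mean signal (log axis) for the 19248 named probe sets past the minimum (grey) and the 14 IRF probe sets (blue), with the 2-fold lines dashed. Each gene is labelled at its brightest probe set, and all IRF points lie inside the 2-fold lines.

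Genes that act with or around the IRFs were described from 9 lists, each gene by its brightest probe set. Of 134 measured genes, 107 were past the minimum, 10 of them at least 2-fold higher in miR-125a KO and 2 at least 2-fold lower. Over all 10590 genes past it, 1.08% were higher and 1.20% lower. The lists were chosen with earlier results of these arrays known, so their counts are a description. The median log2 ratio over the 107 was -0.01, beside 0.0071 over all genes. The genes at 2-fold were 3 partners of IRF4, 5 IRF4-dependent genes and 4 interferon targets.

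Among 9 DNA-binding partners of IRF4 and IRF8 past the minimum, Batf and Batf3 were the 2 at least 2-fold higher. These AP-1 factors form composite DNA complexes with IRF4 or IRF8. Batf3 read 5537 in miR-125a KO and 1920 in WT (log2 ratio 1.52, probe-set SD 0.19), and Batf 4598 in miR-125a KO and 1790 in WT (log2 ratio 1.35, probe-set SD 0.19). Foxp3, which also binds IRF4, was the 1 partner at least 2-fold lower. Bcl6, a repressor of T and B cell differentiation, came next at -0.78, near the minimum and with its other probe set at 0.36. Jun, also an AP-1 partner, was lower too, at 2868 in miR-125a KO and 4834 in WT. Its log2 ratio was -0.75 (probe-set SD 0.19), with its other probe set at -0.86. Of the other JUN proteins, Jund was at -0.26 and Junb at 0.05. The list median was -0.21. The partners of the IRF4 complex thus ranged from -1.21 to 1.52 on the log2 scale while the brighter Irf4 ratio was 0.21.

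Of 18 genes past the minimum described as dependent on IRF4 in effector Treg or helper T cells, 5 reached 2-fold upward and 0 downward, and the median was 0.13. The 5 were the cytokines Il9, Il5, Il13 and Il4, with log2 ratios of 3.44, 3.06, 2.44 and 2.35, and Gata3, the type 2 regulator, with 1.40. Il17a and Il21, other helper cytokines, were at 0.96 and 0.73, and the other probe set of Il21 was at 2.02. Prdm1, which encodes Blimp-1, was at 318 in miR-125a KO and 359 in WT (log2 ratio -0.16, probe-set SD 0.28). Cxcr3 and Maf had the lowest ratios, -0.94 and -0.82. Of genes tied to Treg function, Ccr8 was at 0.40, Gzmb at 0.15, Il10 at 0.12, Ebi3 at 0.03, Ctla4 at 0.02 and Icos at -0.34. The list thus held ratios far above 0 and below it, while the probe sets of Irf4 were at 0.21 and -0.05. Antigen receptor signalling genes upstream of Irf4, 11 of 11, stayed within 2-fold, a change that 1.08% of all genes reached upward and 1.20% downward. Their list median was 0.05. Their extremes were Nfkb2 at 0.45, Mtor at 0.28 with its other probe set past the minimum at -0.22, Nfatc1 at -0.39 and Malt1 at -0.27.

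Of 9 receptors, JAKs and STATs past the minimum, 7 were below 0, beside 49.0% of all genes, with a median of -0.21. None reached 2-fold at its brightest probe set, beside 1.08% of all genes higher and 1.20% lower. A dimmer probe set of Ifngr2, the second chain for interferon gamma, was at 104 in miR-125a KO and 264 in WT (log2 ratio -1.22, probe-set SD 0.38), while its brighter one was at -0.04. Ifngr1, the ligand-binding chain for interferon gamma, was at 2210 in miR-125a KO and 3838 in WT (log2 ratio -0.79, probe-set SD 0.19), and Il10rb, a chain shared by the receptors for IL-10 and interferon lambda, was at -0.52. Ifnar1, a chain of the type I receptor, was at 919 in miR-125a KO and 1068 in WT (log2 ratio -0.21), with its other probe set at -0.67, and Jak2 was highest at 0.25. Of 10 measured interferons only Ifng and Ifnz passed the minimum. Ifng read 14457 in miR-125a KO and 11536 in WT (log2 ratio 0.33, probe-set SD 0.16), and Ifnz 249 in miR-125a KO and 350 in WT (log2 ratio -0.46, probe-set SD 0.32). Type I interferons were otherwise below it, with Ifnb1 at 61.2 in miR-125a KO and 38.7 in WT.

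Nucleic acid sensors, adaptors and kinases upstream of IRF3, IRF5 and IRF7 stayed within 2-fold at their brightest probe sets, 14 of 14 past the minimum. At 2-fold, 1.08% of all genes were higher and 1.20% lower. The list median was -0.14. Mavs, the mitochondrial adaptor of RNA sensing, was lowest, at 851 in miR-125a KO and 1555 in WT (log2 ratio -0.86, probe-set SD 0.20), with its other probe set at -0.53. Dhx58, an RNA helicase of the same route, had -0.67. Cgas, the cytosolic DNA sensor, was highest at 0.43, its other probe set at 1.03, and Tbk1, the kinase of IRF3, was at 0.08. Tlr3, Tlr4, Tlr7, Tlr8 and Tlr9, the Toll-like receptors of the list, were below the minimum. The corepressors that bind IRF2 went both ways, Irf2bpl at -0.62, Irf2bp1 at -0.41 and Irf2bp2 at 0.06. The other probe set of Irf2bpl past the minimum had -0.09, and the 4 probe sets of Irf2bp2 ran from -0.28 to 0.06.

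Targets of the interferon pathways lay on both sides of 0. Among 22 measurable ISGF3 targets, 2 reached 2-fold upward and 1 downward, and the median was 0.02. Usp18, which restrains signalling from the type I receptor, read 1521 in miR-125a KO and 396 in WT (log2 ratio 1.90, probe-set SD 0.23). Oas1a, an antiviral enzyme, read 153 in miR-125a KO and 64.2 in WT (log2 ratio 1.07, probe-set SD 0.38). Isg20, an exonuclease, read 1111 in miR-125a KO and 4769 in WT (log2 ratio -2.09, probe-set SD 0.19). Among 22 targets linked to interferon gamma and IRF1, 1 reached 2-fold upward and 0 downward, with a median of -0.02. That one was Casp1, the inflammasome protease, at 125 in miR-125a KO and 38.8 in WT (log2 ratio 1.36, probe-set SD 0.38). Oas1a and Casp1, both dim, were at 0.76 and 0.88 with the pseudocount at the median signal, short of 2-fold, and did not pass a minimum at the 75th percentile. The guanylate-binding proteins Gbp7 and Gbp3 were lowest at -0.95 and -0.66, and Psmb10, an immunoproteasome subunit, was at 0.21. The lists thus held single genes far from 0 on either side and medians close to 0.

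**Figure D4:**
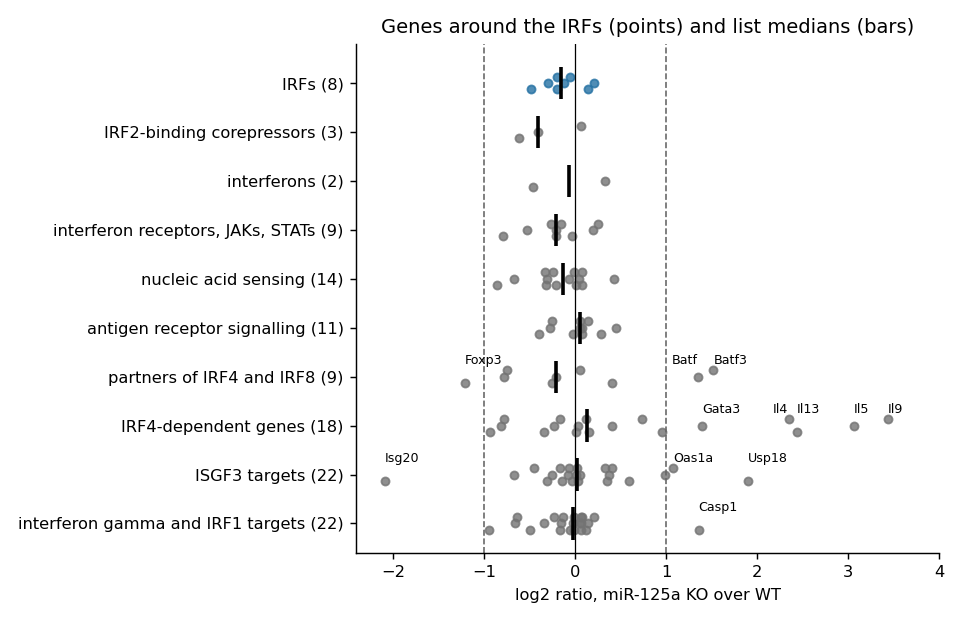
Log2 ratio of miR-125a KO over WT for genes past the minimum in each list (points, number in brackets) with list medians (black bars), and 2-fold dashed. The 8 IRF genes lie between -0.48 and 0.21, whereas partners, IRF4-dependent genes and ISGF3 targets each hold genes beyond 2-fold.

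Irf1 lies beside the type 2 cytokine cluster on chromosome 11, which makes its neighbours a comparison within the locus. In the RefSeq gene order (GRCm38.p6), Il5, Rad50 and Il13 follow each other on one side of Irf1 and Slc22a5 lies on the other. Il5 was at 860 in miR-125a KO and 88.6 in WT, and Il13 at 2076 in miR-125a KO and 371 in WT. Rad50, a DNA repair gene between them, was at 1890 in miR-125a KO and 1133 in WT, a log2 ratio of 0.73 (probe-set SD 0.20). Irf1 itself was at -0.19 and Slc22a5 at 0.12 (probe-set SD 0.24), so the high ratios of Il5 and Il13 were not shared by Irf1 or Slc22a5. Around the other 7 IRF genes, the 28 neighbours past the minimum, up to 3 on each side, had ratios from -0.42 to 0.55. The lowest was Exoc2 beside Irf4 and the highest Emc8 near Irf8. These neighbouring genes were chosen after the IRF values were seen.

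**Figure D5:**
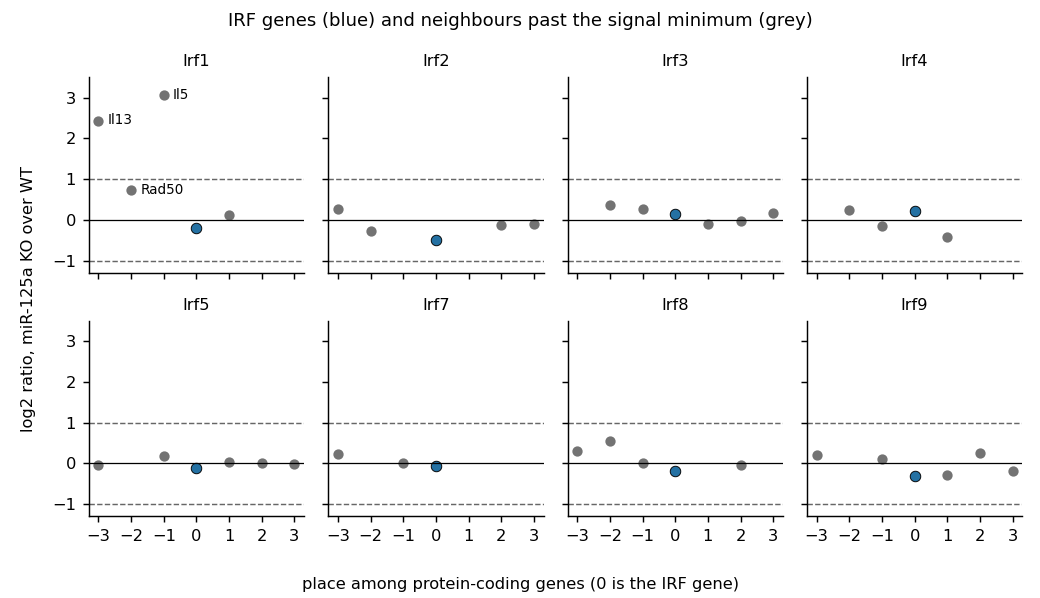
Log2 ratio of miR-125a KO over WT for each IRF gene (blue, its brightest probe set) and for the protein-coding genes up to 3 places away that passed the signal minimum (grey), by place in gene order, with 2-fold dashed. Il5 and Il13 beside Irf1 are the 2 neighbours beyond 2-fold.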

How the data were processed

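The authors deposited log2 values for 45101 probe sets on each of 2 arrays. Per the submitters' processing notes, MAS5 made these values, and no version is named there. Its mismatch subtraction makes dim values unsteady. The linear signals had a mean of 500.0 on both arrays after trimming 2% at each end. The number of arrays, not a read depth, limits the precision. Gene counts leave out 64 controls, 932 probe sets with several names and 9160 with none. Ratios, the minimum and the probe-set SD were computed with Python 3.11.15, pandas 2.3.3, scipy 1.17.1 and statsmodels 0.14.6 and were tested on simulated data. The members and lists were chosen with earlier results of these data known. Named list genes were those at 2-fold or more, up to 2 highest and 2 lowest of each list, and Foxp3, Batf, Prdm1, Stat2, Ifnar1, Ifng and Usp18. Single markers, further list genes and genes below the minimum were picked after their values were seen. No test was run, since each genotype has 1 pooled array. Alternatives were 3 pseudocounts, 3 scalings, 2 filters, 2 folds and 2 treatments of probe sets, with 1 more added after seeing the data.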

Additional observations from a re-analysis of the deposited data

How the results depend on the processing

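No paired analysis was possible because each genotype has 1 array. The count of IRF probe sets at 2-fold was 0 in each direction under every alternative that applies to it. The median of the IRF probe sets was -0.07 as reported, -0.0028 with quantile normalization and -0.00034 with loess, and -0.20 with the filter at the 75th percentile, which kept 8 probe sets. The IRF gene median ran from -0.20 to -0.09. Without probe sets ending in _x_at, _s_at or _a_at, 7 probe sets of 4 IRF genes were left, and Irf1, Irf2, Irf7 and Irf9 had none. Without _x_at and _s_at alone, added after seeing the data, 12 of 7 genes were left and Irf2 had none.

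Among the lists, the corepressor median was -0.087 without either kind of probe set. The interferon median was 0.031 with no filter and 0.33 with the 75th percentile filter. The receptor, JAK and STAT median was -0.39 with the mean over probe sets. The sensing median was -0.21 with no filter, 0.012 without _x_at, _s_at and _a_at probe sets and -0.016 without _x_at and _s_at. The partner median was -0.079 with no filter or the 75th percentile filter, -0.035 with the mean over probe sets and -0.030 without _x_at, _s_at and _a_at. The IRF4-dependent median was 0.28 with the 75th percentile filter. Genes of all lists at least 3-fold higher numbered 5. Those lower numbered 4 with no filter, 14 at 1.5-fold, 1 at 3-fold and 0 without _x_at, _s_at and _a_at probe sets, where Foxp3 and Isg20 had no probe set left. Over all genes, 114 were higher and 127 lower as reported, 142 and 106 with quantile normalization, 146 and 102 with loess, and 136 and 112 with equal medians. With no filter, 579 of 18193 genes were lower. Of 10590 genes, 613 were lower at 1.5-fold, and 30 were higher and 20 lower at 3-fold. Without _x_at, _s_at and _a_at probe sets, 115 of 9155 were lower. Fewer genes or probe sets entered under the filters and exclusions; for the scalings the cause was not tested.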
